A study of Mus musculus with 12 samples.

Results

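The genes described here encode the enzymes that lengthen and branch sugar chains by adding galactose, N-acetylglucosamine (GlcNAc) or, in a few cases, N-acetylgalactosamine (GalNAc). They were chosen by symbol, as the mouse genes whose names start with B3gal, B4gal, B3gnt, Mgat or Gcnt, plus A4gnt. The array carried 38 of them among 909 named genes, and each was read from its brightest probe set. They were measured in RNA of mouse melanoma tumours on an Affymetrix array, 12 arrays in all, as RMA values on a log2 scale. The 4 groups of 3 arrays each were Tm1N3 tumours of galectin-3 knockout hosts (Gal3 -/-), Tm1N3 tumours of wild-type hosts, Tm1G3 tumours of knockout hosts and Tm1G3 tumours of wild-type hosts. Per the labels Tm1N3 is a melanoma line that expresses galectin-3 and Tm1G3 one in which it is silenced. The study's design text says that a galectin-3 plasmid was introduced into a line that had silenced the gene, and that hosts were syngeneic mice. It does not name the lines, and which of them received the plasmid rests on the labels alone. No further treatment, host age or tumour age was given, and whether each line is 1 clone or a replicate is 1 animal was not stated. Knockout refers to the host and not to the injected cells.

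Galectin-3 is a lectin that binds galactose-bearing chains, above all those in which galactose and GlcNAc alternate as N-acetyllactosamine. Some of the enzymes described here build these ligands, and others act on other chains. Several Mgat enzymes start the antennae of N-glycans in the Golgi, and the Gcnt enzymes branch O-glycans and lactosamine chains. Among the B3gnt and B4galt enzymes are those that add the GlcNAc and the galactose of each repeat. The B3galt enzymes add galactose in a different linkage, which gives type 1 chains, gangliosides and the linker of proteoglycans. In bulk tumour RNA, fewer cells that express a gene and less RNA of it per cell cannot be told apart.

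The values of all probe sets ran from 2.14 to 13.9, arrays correlated with r from 0.976 to 0.998 across probe sets, and array medians lay within 0.0945 of each other. Lgals3 itself, which encodes galectin-3, lay between 9.35 and 10.55 in the 6 Tm1N3 arrays and between 8.98 and 9.99 in the 6 Tm1G3 arrays. These ranges overlapped, and the difference of 0.46 ± 0.23 (SE) did not pass (limma, Benjamini-Hochberg adjusted p = 0.376), so the labels of the lines were not borne out by this probe set. Nor were those of the hosts, since knockout minus wild-type hosts gave -0.11 ± 0.33 in Tm1N3 tumours (adjusted p = 1.00), -0.30 ± 0.33 in Tm1G3 tumours (adjusted p = 0.899) and -0.21 ± 0.23 averaged over lines (adjusted p = 0.852). In Tm1G3 tumours of knockout hosts, whose host and line are both labelled as lacking galectin-3, the level was 9.15, 9.80 and 8.98. Whether this probe set detects what was silenced or deleted was not tested, so both comparisons below follow the labels alone. Of 10 melanocyte markers listed only Kit and Mcam had a named probe set, and the melanoma label itself was not tested. Between the lines, both labelled melanoma, these markers ran opposite ways. Averaged over hosts, Kit was lower in Tm1N3 tumours (log2 difference -0.99 ± 0.15, SE) and Mcam higher (0.66 ± 0.15), and both passed. Kit was at -1.55 in knockout hosts, where it passed, and at -0.44 in wild-type hosts, where it did not. Mcam was at 0.57 and 0.75 and passed in neither host alone. The interaction of line and host did not pass for either marker. Summed on the linear scale, 5 macrophage markers ran from 443 to 1570 in Tm1N3 tumours of knockout hosts, 675 to 1360 in Tm1N3 tumours of wild-type hosts, 805 to 1087 in Tm1G3 tumours of knockout hosts and 750 to 1220 in Tm1G3 tumours of wild-type hosts. The sum of 4 fibroblast markers ran, in the same order, from 363 to 1536, from 551 to 1461, from 579 to 1188 and from 621 to 1136. The Tm1N3 arrays numbered 3 of both hosts were the highest of their groups in both sums. Calls of the line comparison are therefore also given without these 2 arrays. Tm1G3 arrays with high sums, up to 1220 for macrophage and 1188 for fibroblast markers, were kept in that fit. No B, T or NK cell marker passed between lines, and no keratinocyte marker was measured.

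Of the 38 genes, 21 lay above the median of all 1246 probe sets by mean level and 8 in the lowest 25%, below a level of 4.22. The dim ones were Mgat4c, Mgat4d, B3gnt5, Gcnt1, Gcnt3, B3galt2, B3galnt1 and B4galnt2. Their group means spanned no more than 0.24 on the log2 scale, and a low probe signal limits what a difference could show. For 7 genes (Mgat4a, B3gnt2, B3gnt3, B3galt1, B3galt2, B3galnt2 and B4galnt4) the probe set name carries a suffix for probes that match more than 1 transcript, so its signal may hold related transcripts.

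The comparison of Tm1N3 with Tm1G3 tumours, averaged over hosts, asks which steps of chain building differ with the tumour line. B3galt4 was higher in Tm1N3 tumours, and Mgat3, B4galt4, B3galt5 and B3gnt3 were lower. These 5 of 38 genes (13.2%) passed the threshold of 0.05 on the p value that limma gave after Benjamini-Hochberg adjustment over the whole array, against 4.25% of the 1246 probe sets. With replicate number as a random block within line, 3 of 38 genes passed and B3gnt3 and B3galt5 did not, beside 40 probe sets called in place of 53. The labels do not state that same-numbered arrays are paired. The 1 higher gene stands beside 1.28% of probe sets called higher, and the 4 lower genes beside 2.97% called lower. The median difference of the 38 genes was -0.01, beside 0.00 for all probe sets, and 19 were positive and 19 negative. The changes were small, none above 1.48-fold, and the genes belonged to 4 of the 6 role groups. At an unadjusted p under 0.05 there were 10 of 38 genes (26.3%), beside 16.4% of all probe sets. All probe sets include unnamed ones and further probe sets of a gene. Of the 909 named genes, each read from its brightest probe set as the members were, 18.9% had an unadjusted p under 0.05. After adjustment 16 of these 909 were called higher and 34 lower.

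**Figure D1:**
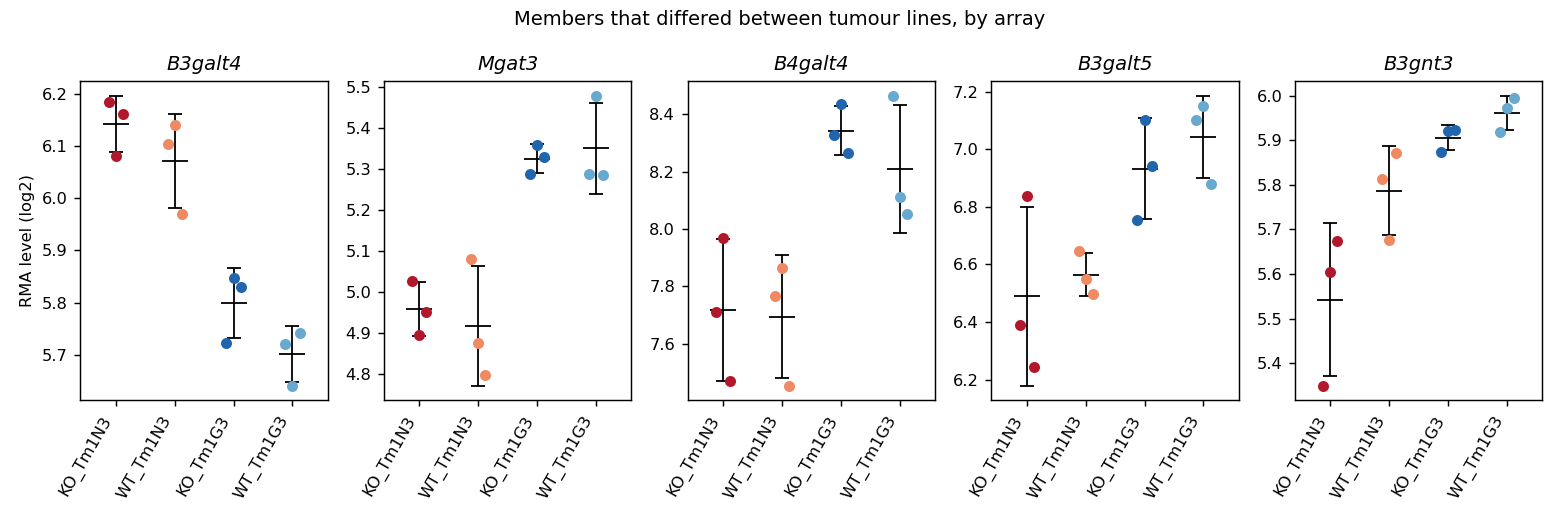
Level of the 5 genes that differed between the tumour lines, with RMA level on a log2 scale (y) by group (x); points are arrays, the horizontal mark is the mean and the bar 1 SD (n = 3 arrays a group, each panel with its own axis). In B3galt4 all 6 Tm1N3 arrays lie above all 6 Tm1G3 arrays, in Mgat3, B4galt4 and B3gnt3 below them, and in B3galt5 1 Tm1N3 array of a knockout host (6.84) reaches into the Tm1G3 range.

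The promoters of the genes that differed between lines are shown so that their start regions can be compared, since B4galt4, B3galt5 and B3gnt3 were lower together and B3galt4 higher. They come from RefSeq, build GRCm38.p6, as windows from 250 bases before to 50 after a start site. Of the 38 genes 30 had such a window, and Mgat3 is named only. Capitals mark matches on either strand to the GC box (GGGCGG), to the box of letters CCAAT, to the TATA box (TATAAA) and to the E-box forms CACGTG and also CATGTG. No match overlapped another here. B3galt4 lies at chr17:33951439-33951738, minus strand, B4galt4 at chr16:38742009-38742308, plus strand, and B3gnt3 at chr8:71701751-71702050, minus strand. B3galt5 has 3 listed starts, of which the window with a match, at chr16:96273263-96273562, plus strand, is given.
B3galt4: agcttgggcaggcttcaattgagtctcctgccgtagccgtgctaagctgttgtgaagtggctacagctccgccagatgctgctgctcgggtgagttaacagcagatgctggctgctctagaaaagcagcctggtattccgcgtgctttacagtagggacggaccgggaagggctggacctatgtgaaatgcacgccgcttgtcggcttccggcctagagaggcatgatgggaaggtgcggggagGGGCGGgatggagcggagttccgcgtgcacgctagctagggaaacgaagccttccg
B4galt4: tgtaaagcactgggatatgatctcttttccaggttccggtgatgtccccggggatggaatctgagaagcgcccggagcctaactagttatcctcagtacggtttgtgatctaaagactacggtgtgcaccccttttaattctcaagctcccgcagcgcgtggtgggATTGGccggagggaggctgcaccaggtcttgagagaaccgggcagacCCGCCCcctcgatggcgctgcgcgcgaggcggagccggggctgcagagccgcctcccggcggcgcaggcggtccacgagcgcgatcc
B3galt5: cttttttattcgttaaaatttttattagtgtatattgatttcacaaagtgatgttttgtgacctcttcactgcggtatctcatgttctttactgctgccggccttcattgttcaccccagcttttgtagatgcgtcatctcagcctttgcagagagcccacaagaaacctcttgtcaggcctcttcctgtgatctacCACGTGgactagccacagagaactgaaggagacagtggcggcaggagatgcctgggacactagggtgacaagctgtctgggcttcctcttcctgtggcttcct
B3gnt3: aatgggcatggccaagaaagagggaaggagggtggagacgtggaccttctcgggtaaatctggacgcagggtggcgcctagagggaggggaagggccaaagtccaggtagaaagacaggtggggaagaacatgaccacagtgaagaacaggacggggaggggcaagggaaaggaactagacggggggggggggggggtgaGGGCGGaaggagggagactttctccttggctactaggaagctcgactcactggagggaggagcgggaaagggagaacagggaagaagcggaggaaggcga

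A GC box stood in the windows of B3galt4, B4galt4 and B3gnt3, 1 match each, and in 35.7% of all 32851 windows. It thus occurred in the gene that was higher and in 2 that were lower. B4galt4 also held a CCAAT box on the opposite strand, found in 37.4% of windows. The printed B3galt5 window held a CACGTG, found in 7.15% of windows, and the windows at its other starts held no match to these letters. As that window was printed for its match, the share of single windows is not the rate for a window so chosen. No TATAAA (13.6% of windows) or CATGTG (14.2%) was found in the windows of these 4 genes. GC content was 59.7% in B3galt4, 62.7% in B4galt4, 60.3% in B3gnt3 and 47.3% in the printed B3galt5 window, beside a median of 52.7%. The windows at the other starts of B3galt5 had 53% and 67.3%. B4galt4 and B3galt5 both lie on chromosome 16, as does B3gnt5, which did not pass between lines.

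B3galt4 encodes the galactosyltransferase that makes the ganglioside GM1 (and GD1b), and it passed in each host on its own. Its level was 6.19, 6.08 and 6.16 in Tm1N3 tumours of knockout hosts and 6.10, 6.14 and 5.97 in Tm1N3 tumours of wild-type hosts. In Tm1G3 tumours it was 5.72, 5.85 and 5.83 in knockout hosts and 5.72, 5.64 and 5.74 in wild-type hosts. Every Tm1N3 array was thus above every Tm1G3 array, with the lowest Tm1N3 value at 5.97 and the highest Tm1G3 value at 5.85. The difference averaged over hosts was 0.36 ± 0.05 (SE), a 1.28-fold higher level (limma, adjusted p = 0.00272). It was 0.34 ± 0.07 in knockout hosts (limma, adjusted p = 0.0472) and 0.37 ± 0.07 in wild-type hosts (limma, adjusted p = 0.0302). With replicate number as a random block within line the call in knockout hosts was lost (adjusted p = 0.0613). The averaged call held with any 1 of the 12 arrays left out, whereas the call in knockout hosts held in 2 and that in wild-type hosts in 5 of those 12 fits. Without both Tm1N3 arrays numbered 3 the averaged difference was 0.38 and still passed (limma, adjusted p = 0.00599).

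Mgat3 encodes the enzyme that adds the bisecting GlcNAc of N-glycans, which hinders further branching. Its level was 5.03, 4.90 and 4.95 in Tm1N3 tumours of knockout hosts and 5.08, 4.88 and 4.80 in Tm1N3 tumours of wild-type hosts. In Tm1G3 tumours it was 5.29, 5.36 and 5.33 in knockout hosts and 5.29, 5.48 and 5.29 in wild-type hosts. The lines did not overlap, with 5.08 the highest Tm1N3 and 5.29 the lowest Tm1G3 value. The averaged difference was -0.40 ± 0.06 (SE), 1.32-fold lower in Tm1N3 tumours (limma, adjusted p = 0.00379). In wild-type hosts alone it was -0.43 ± 0.08 and passed (limma, adjusted p = 0.0454), and in knockout hosts it was -0.37 ± 0.08 and did not (adjusted p = 0.0921). The averaged call held in all 12 fits with 1 array left out, and the one in wild-type hosts in 4 of them. Without both Tm1N3 arrays numbered 3 the averaged call held too. The call in wild-type hosts was also lost after quantile normalizing again (adjusted p = 0.0553), with arrays centred on their median (0.0801), with only the groups compared (0.120), with the fixed block (0.149) and without both Tm1N3 arrays numbered 3 (0.124).

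The other N-glycan branching genes did not pass in either direction. Mgat2, whose enzyme starts the antenna on the other arm of the core after Mgat1, had the largest difference among them, 0.30 ± 0.10 (SE; limma, adjusted p = 0.135). Its 6 Tm1N3 values ran from 7.43 to 8.07 with a mean of 7.58, and its 6 Tm1G3 values from 7.02 to 7.49 with a mean of 7.28. The ranges overlapped, with the highest value in 1 wild-type host, and the gene passed in the fit without the first Tm1N3 array of wild-type hosts. Mgat1, which acts first, differed by -0.07 ± 0.07, Mgat4a by 0.13 ± 0.09 and Mgat4b by 0.10 ± 0.07, the last 2 encoding enzymes for an extra antenna. Mgat5, whose branch is the one most readily extended into the lactosamine repeats that galectin-3 binds, differed by 0.06 ± 0.06, with a 95% interval from -0.08 to 0.20. Mgat5b, which branches O-mannose glycans in brain, differed by -0.02 ± 0.04, Mgat4c by 0.01 ± 0.08 and Mgat4d, whose product inhibits Mgat1 in mouse testis, by -0.02 ± 0.04. In this role group 1 of 9 genes thus fell in Tm1N3 tumours and 8 did not pass.

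Among the genes for chain extension with GlcNAc, B3gnt3, whose enzyme extends core 1 O-glycans and lactosamine chains, was the 1 of 6 that passed. Its level was 5.35, 5.60 and 5.67 in Tm1N3 tumours of knockout hosts and 5.81, 5.68 and 5.87 in Tm1N3 tumours of wild-type hosts. In Tm1G3 tumours it was 5.87, 5.92 and 5.92 in knockout hosts and 5.92, 5.97 and 5.99 in wild-type hosts. The lines lay apart only narrowly, and the Tm1N3 arrays were spread widely (SD 0.18) beside the Tm1G3 arrays (SD 0.04, n = 6 each). The averaged difference was -0.27 ± 0.06 (SE; limma, adjusted p = 0.0299), of which -0.36 ± 0.09 in knockout and -0.17 ± 0.09 in wild-type hosts, neither called. With single arrays left out, 5 of 12 fits kept the averaged call (those without any 1 Tm1N3 array of knockout hosts, the third of Tm1N3 in wild-type hosts or the first of Tm1G3 in wild-type hosts). It was lost with replicate number as a fixed block (adjusted p = 0.0870) and as a random block (adjusted p = 0.0756), and kept without both Tm1N3 arrays numbered 3. It rests on a probe set whose name marks shared probes. B3gnt2, the main enzyme of lactosamine repeats, differed by 0.11 ± 0.09 and did not pass. B3gnt9 (0.15 ± 0.07), B3gnt5 (0.07 ± 0.08), which starts lacto-series glycolipids, B3gnt7 (-0.04 ± 0.07), which extends keratan sulfate, and B3gnt4 (0.01 ± 0.05) did not pass either.

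B4galt4 was the 1 of 7 beta-1,4-galactosyltransferase genes that passed, and it had the largest difference of all 38 genes. Its enzyme adds galactose to GlcNAc, with a preference for sulfated GlcNAc. Its level was 7.71, 7.97 and 7.47 in Tm1N3 tumours of knockout hosts and 7.77, 7.86 and 7.45 in Tm1N3 tumours of wild-type hosts. In Tm1G3 tumours it was 8.33, 8.43 and 8.27 in knockout hosts and 8.46, 8.11 and 8.05 in wild-type hosts. No Tm1N3 array reached the Tm1G3 range, and in each host the lowest value came from the Tm1N3 array numbered 3, the array with the most macrophage and fibroblast signal. The averaged difference was -0.57 ± 0.11 (SE), 1.48-fold lower in Tm1N3 tumours (limma, adjusted p = 0.0130). Without both of these arrays it was -0.45 and passed (limma, adjusted p = 0.0439), and with any 1 array left out it also passed, at adjusted p up to 0.0488. Within hosts it was -0.62 ± 0.15 in knockout and -0.51 ± 0.15 in wild-type hosts, neither called (limma, adjusted p = 0.0996 and 0.139).

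None of the other 6 genes of this family passed. B4galt1, the best known N-acetyllactosamine synthase, differed by -0.13 ± 0.10 (SE), with values from 9.13 to 9.76 in the 6 Tm1N3 arrays and 9.51 to 9.74 in the 6 Tm1G3 arrays. B4galt2 differed by 0.10 ± 0.05 and B4galt3 by 0.08 ± 0.10. The 2 enzymes that make lactosylceramide, the precursor of gangliosides, leaned opposite ways, with B4galt5 at 0.24 ± 0.08 (limma, adjusted p = 0.149) and B4galt6 at -0.20 ± 0.09 (adjusted p = 0.296), and neither passed. B4galt5 passed after quantile normalizing again, with array weights and without the first Tm1G3 array of wild-type hosts, each time as higher in Tm1N3 tumours. B4galt6 passed as lower in the fit without the second Tm1N3 array of wild-type hosts. B4galt7, which adds the first galactose of the proteoglycan linker, differed by 0.04 ± 0.04.

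Beside B3galt4, the beta-1,3-galactosyltransferase gene B3galt5 passed, in the other direction. Its enzyme makes type 1 chains, in which galactose joins GlcNAc by the linkage that B4galt enzymes do not form. Its level was 6.39, 6.84 and 6.24 in Tm1N3 tumours of knockout hosts and 6.64, 6.55 and 6.50 in Tm1N3 tumours of wild-type hosts. In Tm1G3 tumours it was 6.75, 7.10 and 6.94 in knockout hosts and 7.10, 7.15 and 6.88 in wild-type hosts. The groups lay apart in wild-type hosts and overlapped in knockout hosts, where 1 Tm1N3 array exceeded 1 Tm1G3 array. The averaged difference was -0.46 ± 0.10 (SE; limma, adjusted p = 0.0300). The call held in 3 of 12 fits with 1 array left out (the second of Tm1N3 in knockout hosts, the first of Tm1G3 in knockout hosts and the third of Tm1G3 in wild-type hosts), and was lost after quantile normalizing again (adjusted p = 0.142), with the random block (0.0756) and without both Tm1N3 arrays numbered 3 (0.0913).

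B3galt1, another type 1 chain gene, leaned the same way in both of its probe sets without passing, at -0.32 ± 0.09 (SE) in the brighter (limma, adjusted p = 0.0955) and -0.29 ± 0.09 in the other. B3galt6, which adds the linker's galactose after B4galt7, differed by -0.06 ± 0.09, and the dim B3galt2 by 0.01 ± 0.04. In this role group 1 of 5 genes rose, 1 fell and 3 did not pass.

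None of the 5 genes for O-glycan and I branching and none of the 6 GalNAc transferase genes passed. Gcnt2, the I-branching enzyme that adds side branches to lactosamine chains, had the largest difference in these groups, 0.29 ± 0.12 (SE; limma, adjusted p = 0.263). In wild-type hosts its values were 7.27, 7.45 and 6.95 in Tm1N3 tumours and 6.94, 6.68 and 6.50 in Tm1G3 tumours, a difference of 0.52 ± 0.17 that did not pass (adjusted p = 0.195). In knockout hosts they were 6.77, 7.15 and 6.97 in Tm1N3 and 7.17, 6.90 and 6.64 in Tm1G3 tumours, which overlapped. Gcnt1 and Gcnt3, the core 2 enzymes of O-glycans, differed by -0.04 ± 0.07 and -0.06 ± 0.04, B3gnt6, the core 3 enzyme, by 0.05 ± 0.06, and A4gnt, which caps gastric mucin chains, by -0.03 ± 0.05. The second probe set of Gcnt1 was of opposite sign (0.07 ± 0.07), and neither passed. Of the GalNAc transferases, B4galnt1, which makes the gangliosides GM2 and GD2 and so the substrate of B3galt4, differed by -0.04 ± 0.13 (SE). B4galnt4 (-0.11 ± 0.06) and B4galnt3 (-0.05 ± 0.07), which make GalNAc-ended chains in place of lactosamine, B3galnt2 (0.12 ± 0.11), which acts on dystroglycan, B4galnt2 (0.04 ± 0.08), the Sda antigen enzyme, and B3galnt1 (-0.03 ± 0.16), the globoside enzyme, did not pass.

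**Figure D2:**
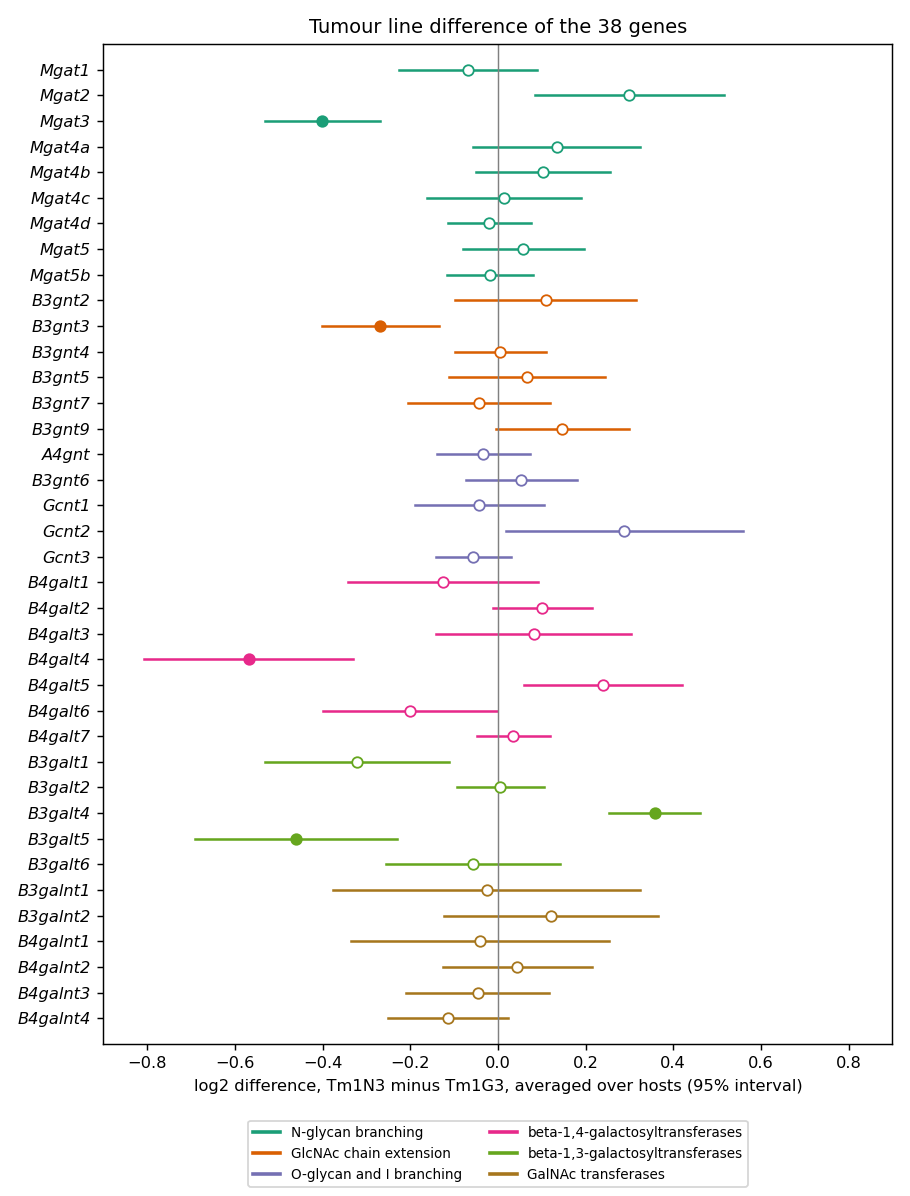
Tumour line difference of all 38 genes, ordered by role, as log2 difference of Tm1N3 minus Tm1G3 tumours averaged over hosts (x); points are limma estimates over 12 arrays, bars 95% intervals, and filled points passed an adjusted p of 0.05. The 5 filled points are B3galt4 at 0.36 on the higher side and B3gnt3, Mgat3, B3galt5 and B4galt4 from -0.27 to -0.57 on the lower side.

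Taken host by host, the line comparison called fewer of the genes. In knockout hosts 1 of 38 passed (B3galt4, 2.63% against 0.722% of probe sets) and in wild-type hosts 2 of 38 (B3galt4 and Mgat3, 5.26% against 0.883%). The sign of the difference was the same in both hosts for 28 of 38 genes (73.7%), against 61.2% of all probe sets. The 2 comparisons share no arrays, but the spread of a probe set comes from 1 fit to all of them. Directions of the calls stood beside 0.161% of probe sets called higher and 0.562% lower in knockout hosts, and 0.401% and 0.482% in wild-type hosts. At an unadjusted p under 0.05 there were 6 of 38 genes in knockout hosts, beside 9.47% of probe sets, and 10 in wild-type hosts, beside 13.1%. The 3 Tm1N3 arrays of knockout hosts lay apart from the 3 Tm1G3 arrays in 7 genes (13.7% of probe sets), with B3galt4 and Mgat2 above (5.78%) and Mgat3, B3gnt3, B4galt4, B3galt1 and B4galnt4 below (7.95%). In wild-type hosts they lay apart in 8 genes (16.9% of probe sets), with B3galt4, Gcnt2, B3gnt5 and B4galt7 above (8.43%) and Mgat3, B3gnt3, B4galt4 and B3galt5 below (8.51%). All 6 Tm1N3 arrays lay apart from all 6 Tm1G3 arrays in 4 genes, B3galt4 above and Mgat3, B4galt4 and B3gnt3 below, against 3.29% of probe sets, 1.2% apart above and 2.09% apart below.

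Setting knockout beside wild-type hosts asks which of these steps differ with the labelled galectin-3 genotype of the host. None of the 38 genes passed in Tm1N3 tumours, in Tm1G3 tumours or averaged over lines, and none of the 1246 probe sets did (0% in each; limma, Benjamini-Hochberg). At an unadjusted p under 0.05 there were 1, 1 and 2 of the 38 genes, and 4.33%, 6.18% and 6.26% of all probe sets. Knockout and wild-type arrays lay apart in 1 gene in Tm1N3 tumours (B3gnt3, lower; 7.62% of probe sets, 2.01% higher and 5.62% lower) and in 3 in Tm1G3 tumours (12.4% of probe sets), with B4galt7 higher (6.66%) and Mgat2 and the dim B3galnt1 lower (5.78%). Over both lines they lay apart in none (0.562% of probe sets, all lower). Averaged over lines, 32 of 38 differences were under 0.1 on the log2 scale and none reached 0.25. In the reported fit, which holds no replicate block, the 95% interval lay within 0.25 on either side of 0 for 26 genes and within 0.5 for 37. Larger host differences are outside the intervals of those genes in that fit.

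The smallest p values among the host differences belonged to the following genes. Mgat2 was 7.43, 7.45 and 7.44 in knockout and 7.44, 8.07 and 7.66 in wild-type hosts of Tm1N3 tumours, and 7.28, 7.02 and 7.23 in knockout and 7.40, 7.49 and 7.28 in wild-type hosts of Tm1G3 tumours. The knockout mean was the lower in both lines, by a difference of -0.25 ± 0.10 (SE) averaged over lines, and the groups overlapped in Tm1N3 and lay narrowly apart in Tm1G3 tumours (limma, adjusted p = 0.749). It was -0.16 without the Tm1N3 array numbered 2 of wild-type hosts, the highest of all. B3gnt3, whose values stand above, differed by -0.24 ± 0.09 in Tm1N3 tumours, where the 3 knockout arrays were below the 3 wild-type arrays, and by -0.06 ± 0.09 in Tm1G3 tumours. Without the Tm1N3 array numbered 1 of knockout hosts the first of these was -0.15. B4galt7 was 7.05, 6.97 and 7.08 in knockout and 6.88, 6.92 and 6.84 in wild-type hosts of Tm1G3 tumours, a difference of 0.15 ± 0.05 (limma, adjusted p = 0.752). In Tm1N3 tumours it was 6.98, 6.97 and 7.01 in knockout and 6.98, 7.04 and 6.96 in wild-type hosts, and the groups overlapped.

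B3gnt9 was 6.66, 6.57 and 6.49 in knockout and 6.39, 6.51 and 6.24 in wild-type hosts of Tm1G3 tumours, and B4galnt4 was 4.79, 4.69 and 4.79 in knockout and 4.56, 4.76 and 4.48 in wild-type hosts. Both overlapped and did not pass (differences 0.20 ± 0.10 and 0.16 ± 0.09, SE). Without the array numbered 3 of wild-type hosts these were 0.13 and 0.10, and without that numbered 2 the difference of B4galnt4 was 0.23. B3galnt1 was 3.90, 3.88 and 3.83 in knockout and from 3.97 to 4.21 in wild-type hosts of Tm1G3 tumours, and 3.47, 3.64 and 4.46 in knockout and 3.86, 3.88 and 4.34 in wild-type hosts of Tm1N3 tumours. Its highest values in Tm1N3 tumours were those of both arrays numbered 3, those with the most macrophage and fibroblast signal, and the part of these cells was not tested. Gcnt2 differed between hosts by -0.26 ± 0.17 in Tm1N3 and 0.20 ± 0.17 in Tm1G3 tumours, and with 1 array left out that in Tm1N3 tumours ran from -0.39 to -0.14.

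**Figure D3:**
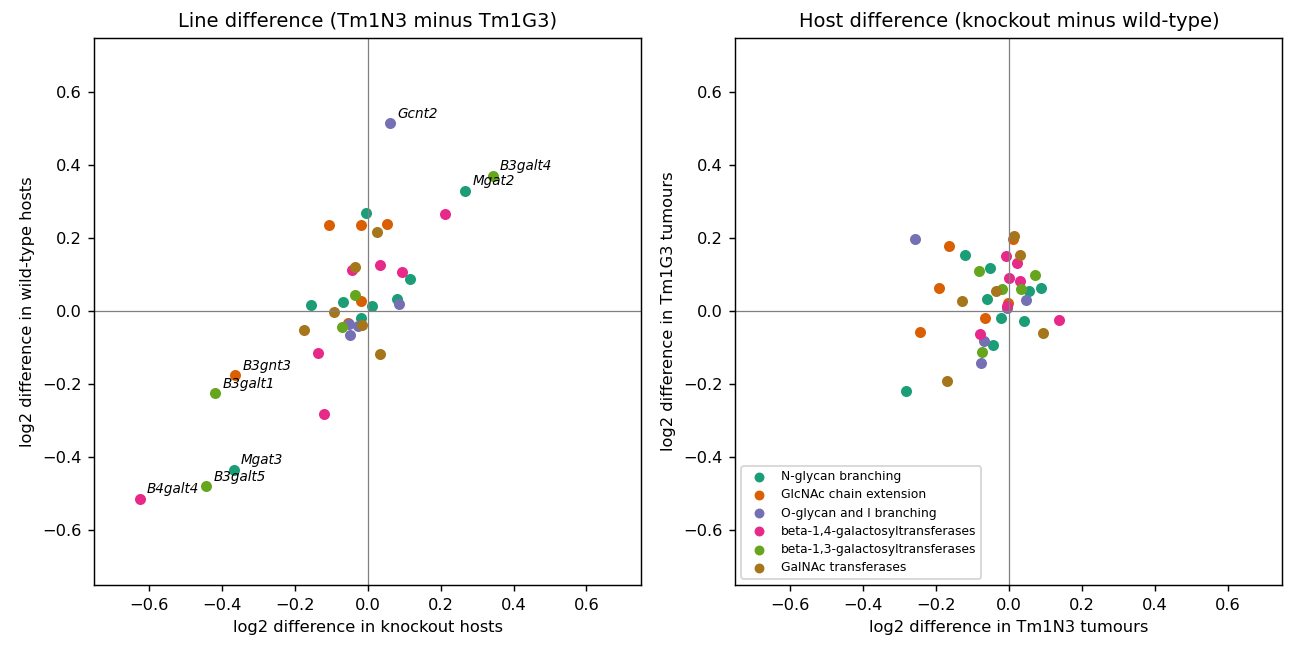
Differences of the 38 genes on a log2 scale, coloured by role. Left, Tm1N3 minus Tm1G3 in knockout hosts (x) against wild-type hosts (y); right, knockout minus wild-type hosts in Tm1N3 (x) against Tm1G3 tumours (y). Each point is a gene. Line differences reach -0.62 for B4galt4 and share their sign in 28 genes, whereas host differences stay between -0.28 and 0.21.

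Whether the line difference itself depended on the host was tested as the interaction, the line difference in knockout hosts minus that in wild-type hosts. None of the 38 genes passed and none had an unadjusted p under 0.05, beside 2.81% of probe sets. The smallest p values were those of B3gnt5, B4galt7 and Gcnt2, at -0.34 ± 0.16, -0.16 ± 0.07 and -0.46 ± 0.24 (SE; limma, adjusted p = 0.996 each). B3gnt5 was 3.80, 4.01 and 4.08 in Tm1N3 and 4.31, 3.98 and 3.94 in Tm1G3 tumours of knockout hosts, and 4.28, 4.06 and 4.05 in Tm1N3 and 3.96, 3.82 and 3.90 in Tm1G3 tumours of wild-type hosts. The gene is dim, and the groups lay apart only in wild-type hosts. Its interaction was -0.23 without the Tm1G3 array numbered 1 of knockout hosts. Intervals of the interaction were wide, and within 0.25 on either side of 0 for only 5 of 38 genes.

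Genes that act before, beside and after these enzymes were taken from lists of the pathway, which share A4galt, St3gal1 and St3gal2, each counted in 2 of them. In the averaged line comparison, 0 of 3 measured N-glycan trimming genes passed, with Man2a1 at 0.23 ± 0.08 (SE) and Ganab at 0.21 ± 0.07 (adjusted p = 0.139 and 0.152). None of 15 genes that make or carry UDP-galactose and UDP-GlcNAc passed, among them Galk1 (0.03 ± 0.09), Galt (-0.04 ± 0.08) and the Golgi UDP-galactose transporter gene Slc35a2 (-0.08 ± 0.06). The 5 core 1 and alpha-galactosyltransferase genes gave none, with C1galt1, which starts core 1 O-glycans, at -0.07 ± 0.09 and its chaperone gene C1galt1c1 at 0.18 ± 0.09. None of 7 proteoglycan linker partners passed.

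Of 11 genes listed for ganglioside and globoside synthesis, St6galnac6, a ganglioside sialyltransferase, fell (-0.36 ± 0.06, SE; limma, adjusted p = 0.00604) and 10 did not pass. Ugcg, which makes glucosylceramide, was at -0.29 ± 0.12 and St3gal5, which makes GM3, at 0.04 ± 0.08. Of 11 genes that cap galactose chains with sialic acid or fucose, St3gal3 fell (-0.41 ± 0.09; limma, adjusted p = 0.0235) and 10 did not pass, with St6gal1, whose alpha-2,6-sialic acid hinders galectin-3 binding, at -0.47 ± 0.12 (adjusted p = 0.0552). Of 10 galectin genes Lgals7 rose (0.63 ± 0.15; limma, adjusted p = 0.0369) and Lgalsl fell (-0.53 ± 0.09; adjusted p = 0.0102), and 8 did not pass. In the host comparison averaged over lines none of these genes passed.

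Values of other cell types stood beside the line difference as follows. Of the markers measured, all 3 neutrophil, both T and NK cell, both endothelial, 4 of 5 macrophage and 3 of 4 fibroblast genes had negative differences, and of these only the endothelial adhesion gene Icam2 passed (-0.40 ± 0.08, SE). Signs varied by host, with 2 of 3 neutrophil genes positive in knockout and 0 of 3 in wild-type hosts. Of 4 fibroblast genes 1 was positive in knockout and 2 in wild-type hosts, and their averaged median was -0.002. The neutrophil sum was 241 in the Tm1G3 array numbered 1 of wild-type hosts and at most 118 in every other array. The sum of the endothelial genes Pecam1 and Icam2 ran from 561 to 879 in Tm1N3 tumours and from 692 to 1178 in Tm1G3 tumours, which overlapped. The part of these cells in the differences of B3galt4, Mgat3, B4galt4, B3galt5 and B3gnt3 was not tested.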

How the data were processed

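Total RNA of the tumours was prepared with Trizol and made into biotinylated cRNA for Affymetrix arrays, per the labels' protocols. The authors deposited 1 table of log2 values. It came from RMA, per the submitters' processing notes, which adjusts background, makes array distributions equal and combines the probes of a probe set. The version and parameters of that step are not given in the sources used here. Values were used as deposited, without scanner files, so signal over background was not examined. Precision is limited by how many arrays there are.

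Of 1246 probe sets 963 were named by the RefSeq accession in their names, through genes of assembly GRCm38.p6. The brightest probe set stood for a gene. All 12 arrays entered 1 linear model with a mean for each of the 4 groups (limma 3.58.1, lmFit and eBayes, in R 4.3.3), with 8 residual and 2.39 prior degrees of freedom, tested on simulated data. In each of 7 comparisons p values were adjusted for 1246 probe sets (Benjamini-Hochberg), with a threshold of 0.05. They measure only the spread between these samples, which may be technical. Errors are SD for levels and moderated SE for differences.

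The genes, lists and role groups were chosen with earlier results of these data known. By rule every member is named, and values by array are given for members past the threshold, or for the 3 with the smallest p where none passed. Alternatives were normalization, dim and shared probe sets, probe sets per gene, samples fitted, array weights, replicate blocks and each array left out.

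Replicate numbers are shared by groups. Deviations from group means correlated, between same-numbered arrays of the 2 hosts, from 0.184 to 0.752 in Tm1N3 and from 0.249 to 0.308 in Tm1G3 tumours. As every pair exceeded 0.1, they were taken as paired, which the random block within line takes up. The fit reported above holds no block, so its errors, p values and intervals do not use this pairing. Between lines the correlations ran from -0.660 to 0.544, and those arrays were not taken as paired. The random block joins same-numbered arrays of the 2 hosts within a line, as does the fixed block for host differences and the interaction. For line differences the fixed block instead joins same-numbered arrays of the 2 lines within a host, although these were not taken as paired. What the numbers mark is not stated, and the labels give no pairing of arrays. Correlations between differently numbered arrays were not computed, so a pairing by number was not tested against them.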

Additional observations from a re-analysis of the deposited data

How the results depend on the processing

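In the averaged line comparison 5 genes passed, and from 3 to 5 with 1 array left out (3 without the Tm1G3 array numbered 2 or 3 of knockout hosts or that numbered 2 of wild-type hosts). B3galt4, Mgat3 and B4galt4 passed in all 12 of those fits and under every other alternative run. With replicate number as a random block within line 3 genes passed, B3gnt3 and B3galt5 being lost. With the fixed block, which here joins arrays across lines that were not taken as paired, 4 passed. Over all probe sets 53 were called, 23 with the fixed block, 131 with array weights and 32 to 63 with 1 array left out. Quantile normalizing again gave 29 higher and 28 lower probe sets, against 16 and 37 as reported, and 2 higher and 3 lower members, against 1 and 4, with B4galt5 gained and B3galt5 lost. Array weights gave 7 members, adding B4galt5 and Gcnt2 as higher.

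In knockout hosts the 1 call became 0 after quantile normalizing again, with arrays centred on their median, with only the groups compared, with the fixed and the random replicate block and without both Tm1N3 arrays numbered 3 (chosen after seeing the data). It became 4 with array weights, adding Mgat3, B4galt4 and B3gnt3 as lower, and 0 to 1 with 1 array left out, holding only without the Tm1N3 array numbered 2 or 3 of wild-type hosts. In wild-type hosts the 2 calls became 0 under the same alternatives except the random block, and 0 to 2 with 1 array left out. They became 0 without the Tm1N3 array numbered 2 of wild-type hosts, the Tm1G3 array numbered 2 or 3 of knockout hosts, or any 1 Tm1G3 array of wild-type hosts. The fit of only the groups compared and those with arrays left out use fewer arrays, and the cause of the losses was not tested.

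For the host differences and the interaction 0 members passed in limma under every alternative run, and as reported 1, 1, 2 and 0 had an unadjusted p under 0.05 in Tm1N3 tumours, in Tm1G3 tumours, averaged over lines and in the interaction. Signs under the alternatives were compared for genes past the threshold and for the 3 with the smallest p where none passed, and none of these changed. Signs of the other members, many of them with differences near 0, were not compared. The fit of only the groups compared gives no averaged difference, which needs all arrays. With 3 arrays a group and no scanner files, what the dim genes can show is limited.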
